A study of Mus musculus with 15 samples.

Results

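Proteasome genes were described across the spleen arrays of mice whose liver was regenerating. They were chosen by symbol: every feature whose only platform symbol begins with Psm, a letter from a to e and a digit, pseudogenes left out. This gave 45 genes, each with 1 feature, out of 22206 features tested and 19572 features with 1 symbol. By role they comprised 13 genes of the 20S core (7 of the alpha rings, Psma1 to Psma7, and 6 of the beta rings), 17 of the 19S regulatory cap (6 ATPases and 11 other subunits) and 5 immunoproteasome genes. The other 10 were 3 chaperones of cap assembly, 3 further activators, 2 core subunits of other tissues and 2 genes that share the symbol but are no subunit by name. Psmb5 had no feature with a single symbol and was not analysed here.

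Total RNA from whole spleens of male C57bl/10 mice was hybridised to Clariom S mouse arrays, 1 array per spleen and 15 in all. The resected groups had lost 70% of the liver under isoflurane and were collected on day 1, day 3 or day 7, with 3 spleens each. The 6 intact mice were not operated, and spleens of sham-operated mice were not analysed here, so anaesthesia, laparotomy and loss of liver cannot be told apart. Days 1 and 7 were set against intact spleens 1 to 3, and day 3 against intact spleens 4 to 6. No label ties a day to a set of intact spleens.

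The proteasome is the protease that degrades most short-lived and misfolded proteins after they are tagged with ubiquitin. Its barrel-shaped core holds the active sites inside the beta rings, the alpha rings guard the entrance, and the cap binds ubiquitin chains, unfolds the substrate and opens the gate. Lymphocytes and antigen-presenting cells, which fill the spleen, also carry the immunoproteasome, whose interferon-inducible subunits replace the standard catalytic ones and whose activator PA28 favours peptides for class I presentation.

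Levels are log2 values of robust multi-array averaging (RMA), and a difference of 1 is a 2-fold difference. On all 15 arrays 43 of the 45 genes lay above the array's own median of 4.74 to 4.89, and 2 lay below it. Correlations between arrays ran from 0.944 to 0.987. The intact sets themselves differed: 131 features (0.59%) passed an adjusted p under 0.05 in limma between spleens 4 to 6 and 1 to 3. Over these features, day 1 lay nearer to spleens 1 to 3 for 123, day 3 nearer to spleens 4 to 6 for 113 and day 7 nearer to spleens 1 to 3 for 124. Pancreatic acinar transcripts (12 of 14 markers measured) had a mean level of 14.53, 12.57 and 5.04 in intact spleens 1, 2 and 3, against 3.83 to 6.40 in intact spleens 4 to 6 and 3.52 to 8.23 on the days after resection. Markers of spleen cells were present, with mean B cell marker levels of 8.90 to 12.55 over all arrays. In such bulk RNA, fewer cells of a type and less RNA per cell cannot be told apart.

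All 30 core and cap genes had a higher mean on day 7 than in intact spleens 1 to 3, and all 30 had a higher mean on day 3 than in intact spleens 4 to 6. On day 1 it was 20 of 30. The median log2 difference of the core was 0.19 on day 1, 0.72 on day 3 and 0.87 on day 7. For the cap it was 0.21, 0.64 and 0.69 on the same days, and the median over all features tested was 0.00 on each day. The immunoproteasome genes did not share these values: their medians were -0.39, 0.23 and -0.15.

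**Figure D1:**
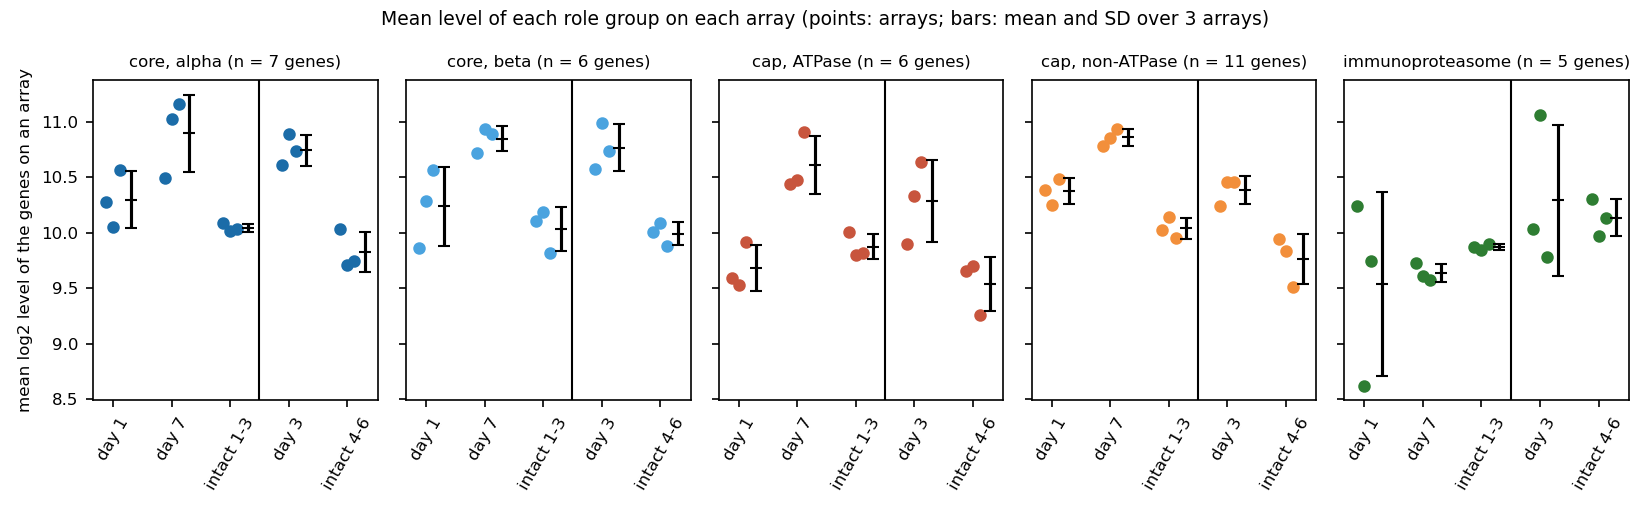
Mean log2 level of the genes of each role (vertical axis) on each array (points), with the mean and SD over 3 arrays as bars, for days 1 and 7 beside intact spleens 1 to 3 and, right of the line, day 3 beside intact spleens 4 to 6. All day 7 and day 3 points of the alpha, beta, ATPase and non-ATPase panels lie above those of their intact set, whereas the immunoproteasome points overlap on days 1 and 3 and lie lower on day 7 (9.57 to 9.72, against 9.84 to 9.90 in intact spleens 1 to 3).

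No proteasome gene passed an adjusted p under 0.05 over all features on any day in limma. On day 7 the same held for every feature (0% called), as on day 1 (0%), and on day 3 it held for all but 2 features (0.00901%). At an unadjusted limma p under 0.05, 22 of 45 genes were higher on day 7, against 5.91% of all features, and 1 was lower, against 4.45%. On day 3 the numbers were 24 higher, against 5.76%, and 0 lower, against 3.28%. Signs follow the labels of the arrays, and the study lists proteasome degradation on that day with downregulated genes only, the opposite direction. That list rests on the study's own pathway genes and its own calls against intact spleens, so it is not the same measure. On day 1 the numbers were 5 higher, against 4.48%, and 0 lower, against 2.63%. Of the 22 genes on day 7 all were core or cap genes, as were 23 of the 24 on day 3 and all 5 on day 1. The count on day 3 was 12 without intact spleen 6, and that on day 1 was 3 without intact spleen 1 or without day 1 replicate 3. Further quantile normalization also gave 12 genes on day 3, with a core median of 0.54 in place of 0.72. The count of lower genes was 3 on day 1 without its replicate 1 and 1 without intact spleen 1 or 3, and on day 7 it was 0 without day 7 replicate 1 and 2 without day 7 replicate 2.

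The arrays can also be compared one by one. Every day 7 array lay above every array of intact spleens 1 to 3 for 24 of 45 genes (7.93% of all features) and below them for 2 genes (8.31%). Every day 3 array lay above every array of intact spleens 4 to 6 for 23 genes (6.78%) and below for 0 (5.38%). For day 1 the counts were 9 (7.89%) and 1 (7.14%). Days 3 and 7 have no intact spleen in common: 18 genes, all of them core or cap, were higher at an unadjusted p under 0.05 on both days (1.32% of all features), and 36 of 45 had a difference above 0 on both (27.6%). The limma p values of both days use the same variance estimate of a gene, so these calls are not independent.

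**Figure D2:**
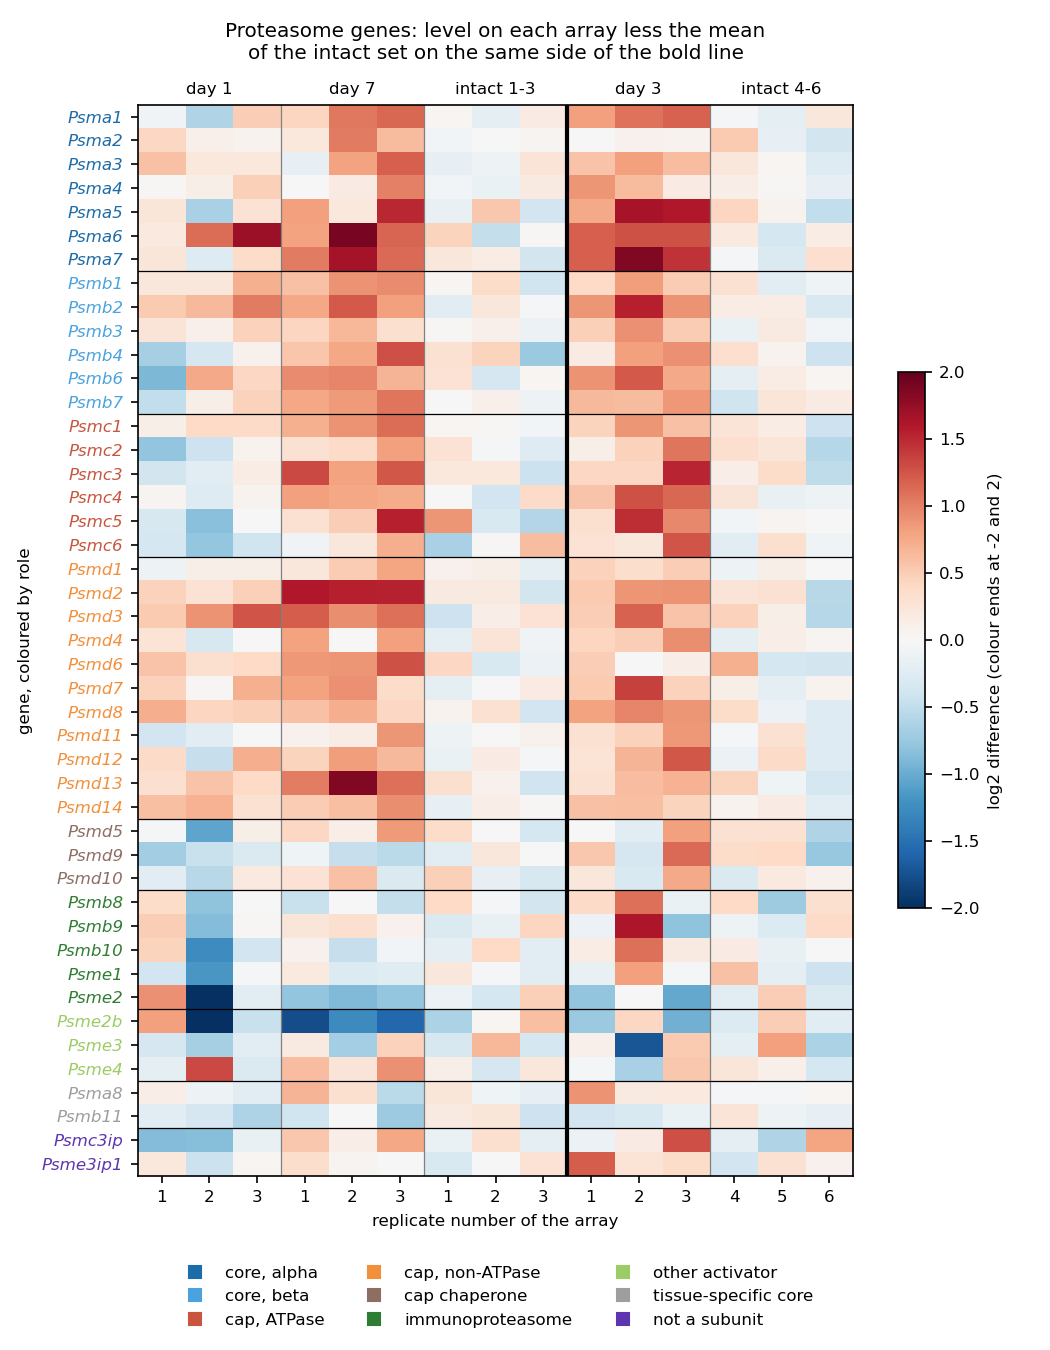
Log2 level of each of the 45 genes (rows, coloured and grouped by role) on each array (columns) less the mean of the intact set on the same side of the bold line, red for higher and blue for lower. Core and cap rows are mostly red on days 7 and 3, the immunoproteasome rows are of both colours there, and day 1 replicate 2 is blue across the 5 immunoproteasome rows.

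The choice of intact spleens changed the calls. With all 6 as 1 control group, Psmd2, Psma7, Psmd13, Psmc1 and Psmb7 passed the adjusted threshold on day 7 (5 genes against 0.932% of all features), and 0 genes did so on day 1 (0%) and day 3 (0.027%). With the other set of intact spleens, 14 genes passed on day 7 (5.85%), Psmd8 alone on day 1 (1.48%), and Psmb2 and Psmd3 on day 3 (0.932%). Those 14 were all core or cap genes. Against the other set, 12 genes were higher on day 1 at an unadjusted p under 0.05 (8.49%), and 13 on day 3 (8.01%). Measured against all 6 intact arrays together, every array was higher for 7 genes on day 1 (3.12%), for 13 on day 3 (2.8%) and for 20 on day 7 (4.13%). On day 7 every array was lower for Psme2 and Psme2b (4%).

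Promoters are shown for Psma7 and Psmd2, which had the smallest p of the 45 genes on days 3 and 7, and for Psmb6 and Psmb8, a standard and an interferon-inducible catalytic subunit. RefSeq promoters of GRCm38.p6, from 250 bases before to 50 after the start, were found for 38 of the 45 genes. Psma8, Psmb1, Psmb2, Psmb7, Psmc3, Psmd3 and Psmd7 had none in the table. Capitals mark a motif match: CCAAT in Psma7 (chr2:180042415-180042714, minus strand), a gamma-activated site TTCNNNGAA in Psmd2 (chr16:20651402-20651701, plus strand) and in Psmb8 (chr17:34197945-34198244, plus strand), and an antioxidant response element TGACNNNGC in Psmb6 (chr11:70525107-70525406, plus strand).
Psma7: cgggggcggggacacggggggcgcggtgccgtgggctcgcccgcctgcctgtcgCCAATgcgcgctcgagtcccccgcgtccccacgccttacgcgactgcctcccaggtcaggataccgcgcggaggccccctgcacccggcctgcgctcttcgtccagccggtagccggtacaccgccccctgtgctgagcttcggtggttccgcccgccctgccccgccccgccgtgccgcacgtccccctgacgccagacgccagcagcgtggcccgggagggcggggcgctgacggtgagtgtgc
Psmd2: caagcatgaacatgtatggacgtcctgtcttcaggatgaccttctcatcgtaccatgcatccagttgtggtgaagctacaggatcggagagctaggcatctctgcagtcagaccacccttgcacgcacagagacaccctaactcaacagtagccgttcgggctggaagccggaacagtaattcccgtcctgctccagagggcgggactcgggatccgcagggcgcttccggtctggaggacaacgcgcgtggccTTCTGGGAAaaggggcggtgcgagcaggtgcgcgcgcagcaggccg
Psmb6: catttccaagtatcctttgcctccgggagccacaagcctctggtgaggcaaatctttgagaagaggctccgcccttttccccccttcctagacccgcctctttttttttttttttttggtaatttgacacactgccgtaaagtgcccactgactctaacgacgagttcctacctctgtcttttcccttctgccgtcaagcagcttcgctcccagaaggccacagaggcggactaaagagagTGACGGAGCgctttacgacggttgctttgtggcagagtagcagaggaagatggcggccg
Psmb8: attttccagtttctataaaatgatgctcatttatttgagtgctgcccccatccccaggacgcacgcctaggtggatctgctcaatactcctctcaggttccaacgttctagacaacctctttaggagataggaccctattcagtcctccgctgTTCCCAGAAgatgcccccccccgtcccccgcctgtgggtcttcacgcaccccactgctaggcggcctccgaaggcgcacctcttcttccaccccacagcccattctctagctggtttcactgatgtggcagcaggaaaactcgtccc

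Matches lay at -196 in Psma7, 5 in Psmd2, -97 in Psmb8 and -9 in Psmb6, counted from the start. Over both strands, CCAAT was in 16 of the 38 promoters (42.1%), against 41.1% of the 27025 genes of the table. The antioxidant response element was in 5 (13.2%, against 14.0%) and the gamma-activated site, a palindrome read once, in 2 (5.26%, against 9.55%). The core of the interferon-stimulated response element, GAAANNGAA, was in 6 (15.8%, against 9.76%), namely Psmb3, Psmb4, Psmc2, Psmd4, Psmd9 and Psme1. None of the matches was tested for binding.

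Psma7 and Psma1, both of the alpha rings that gate the core, had the smallest unadjusted p of that role in the comparisons of the days. Psma7 measured 9.31, 8.82 and 9.44 on day 1 and 10.10, 10.74 and 10.20 on day 7, against 9.29, 9.22 and 8.69 in intact spleens 1 to 3. Its levels on day 3 were 9.81, 10.47 and 10.06, against 8.58, 8.32 and 8.95 in intact spleens 4 to 6. All day 7 and day 3 arrays were above all 6 intact arrays, whereas day 1 overlapped its intact set. The log2 difference was 1.28 (SE 0.27) on day 7, a 2.43-fold level (adjusted p = 0.174), and 1.50 (SE 0.27) on day 3, a 2.82-fold level (adjusted p = 0.0866).

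Psma1 measured 10.35, 9.82 and 10.92 on day 1 and 10.86, 11.47 and 11.57 on day 7, against 10.46, 10.22 and 10.59 in intact spleens 1 to 3. Levels on day 3 were 10.70, 10.96 and 11.06, against 9.84, 9.69 and 10.10 in intact spleens 4 to 6. Days 3 and 7 again stood clear of their intact sets, by 1.03 (SE 0.28) and 0.88 (SE 0.28), and day 1 lay on both sides of it. Of the 7 alpha genes, 5 were higher at an unadjusted p under 0.05 on day 7 and 5 on day 3, with differences of 0.40 to 1.29 and of 0.06 to 1.50. Psma6 was the 1 alpha gene higher at that threshold on day 1, by 1.01 (SE 0.37), and it was higher by 1.24 (SE 0.37) on day 3 and by 1.29 (SE 0.37) on day 7. At the low end, Psma2 differed by 0.06 (SE 0.25) on day 3 and Psma4 by 0.40 (SE 0.27) on day 7.

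The 6 beta genes were each higher at an unadjusted p under 0.05 on day 7, with differences of 0.47 to 0.94, and 5 of 6 on day 3. Psmb7 and Psmb6 encode standard catalytic subunits of the core, with trypsin-like and caspase-like activity. Psmb7 measured 11.58, 12.20 and 12.55 on day 1 and 12.86, 12.94 and 13.15 on day 7, against 12.08, 12.19 and 11.98 in intact spleens 1 to 3. The day 3 values were 12.62, 12.60 and 12.84, against 11.57, 12.21 and 12.12 in intact spleens 4 to 6. Day 7 lay above all other groups, and day 1 straddled its intact set. The differences were 0.03 (SE 0.25), 0.72 (SE 0.25) and 0.90 (SE 0.25) on days 1, 3 and 7 (day 7, adjusted p = 0.257 in limma).

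For Psmb6 the levels were 8.61, 10.26 and 9.92 on day 1 and 10.45, 10.47 and 10.19 on day 7, against 9.79, 9.17 and 9.55 in intact spleens 1 to 3. On day 3 they were 9.63, 9.97 and 9.50, against 8.55, 8.88 and 8.78 in intact spleens 4 to 6. Both later days were clear of their own intact set, by 0.96 (SE 0.34) on day 3 and 0.87 (SE 0.34) on day 7, but the day 3 arrays overlapped intact spleens 1 to 3. Intact spleens 4 to 6 were lower than spleens 1 to 3 by a log2 difference of -0.77 (SE 0.34), with no overlap.

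Psmb2, a structural beta subunit without an active site, was the 1 beta gene that was also higher at an unadjusted p under 0.05 on day 1. It measured 8.94, 9.05 and 9.44 on day 1 and 9.19, 9.63 and 9.23 on day 7, against 8.20, 8.63 and 8.39 in intact spleens 1 to 3. Day 3 gave 9.61, 10.26 and 9.62, against 8.87, 8.87 and 8.41 in intact spleens 4 to 6. All 9 arrays after resection were above all 6 intact arrays. The differences were 0.74 (SE 0.25), 1.11 (SE 0.25) and 0.94 (SE 0.25) on days 1, 3 and 7, or 1.67-fold, 2.16-fold and 1.92-fold (adjusted p = 0.598, 0.141 and 0.242).

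**Figure D3:**
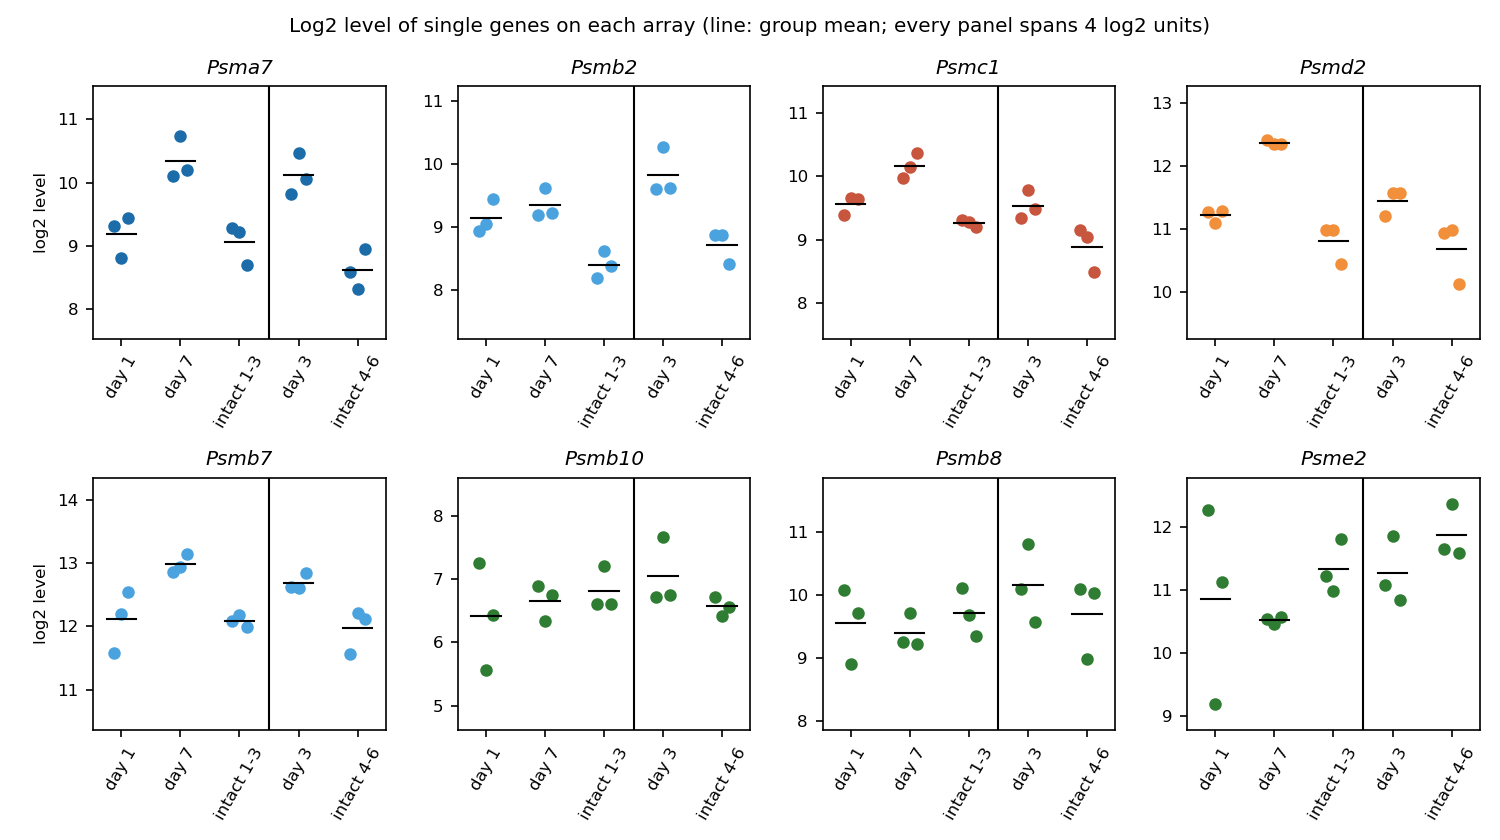
Log2 level (vertical axis, 4 log2 units in every panel) of 8 single genes on each array (points) with the group mean (line), for days 1 and 7 beside intact spleens 1 to 3 and, right of the line, day 3 beside intact spleens 4 to 6. Psmd2 lies between 12.34 and 12.40 on day 7, above every other array, whereas Psmb10 and Psmb8 overlap in every comparison.

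The cap ATPases unfold the substrate and open the core. Psmc1, whose tail inserts into the alpha ring, measured 9.39, 9.66 and 9.64 on day 1 and 9.97, 10.15 and 10.38 on day 7, against 9.31, 9.28 and 9.20 in intact spleens 1 to 3. On day 3 it was at 9.34, 9.78 and 9.48, against 9.15, 9.04 and 8.48 in intact spleens 4 to 6. Each of the 9 arrays after resection was above all 6 intact arrays. The differences were 0.30 (SE 0.22), 0.64 (SE 0.22) and 0.91 (SE 0.22) on days 1, 3 and 7.

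Psmc4 measured 9.52, 9.23 and 9.54 on day 1 and 10.30, 10.25 and 10.22 on day 7, against 9.48, 9.09 and 9.86 in intact spleens 1 to 3. Its levels on day 3 were 9.11, 9.82 and 9.70, against 8.80, 8.39 and 8.44 in intact spleens 4 to 6. Days 7 and 3 were clear of their own sets, by 0.78 (SE 0.24) and 1.00 (SE 0.24). However, the day 3 arrays overlapped intact spleens 1 to 3, and intact spleens 4 to 6 were lower than spleens 1 to 3 by a difference of -0.93 (SE 0.24). Of the 4 core and cap roles, the ATPases alone had a negative median on day 1, -0.26 with 5 of 6 genes below 0, and their medians were 0.72 on day 3 and 0.78 on day 7.

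The non-ATPase subunits dock ubiquitin chains and remove them. Psmd2, a large scaffold that receives ubiquitin and its shuttle proteins, had the largest difference of the 45 genes on day 7 and the smallest p of all 22206 features. It measured 11.27, 11.09 and 11.29 on day 1 and 12.40, 12.35 and 12.34 on day 7, against 10.99, 10.98 and 10.44 in intact spleens 1 to 3. The day 3 values were 11.20, 11.57 and 11.57, against 10.93, 10.99 and 10.13 in intact spleens 4 to 6. The 3 day 7 arrays lay close together and above all other arrays, and the arrays of the other days were each above all 6 intact arrays. The differences were 0.41 (SE 0.25), 0.77 (SE 0.25) and 1.56 (SE 0.25) on days 1, 3 and 7, and on day 7 the level was 2.95-fold with a 95% interval of the log2 difference of 1.03 to 2.09 (adjusted p = 0.172 in limma). Of the single arrays left out, only day 7 replicate 3 took Psmd2 past the adjusted threshold on day 7 (adjusted p = 0.0327).

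Psmd13, a subunit of the lid of the cap, measured 12.56, 12.81 and 12.63 on day 1 and 13.26, 14.09 and 13.34 on day 7, against 12.55, 12.32 and 11.84 in intact spleens 1 to 3. Day 3 gave 11.94, 12.26 and 12.33, against 12.09, 11.55 and 11.29 in intact spleens 4 to 6. Days 1 and 7 were above all 6 intact arrays, and day 7 was the highest group, while day 3 overlapped its intact set. The differences were 0.43 (SE 0.28), 0.54 (SE 0.28) and 1.33 (SE 0.28) on days 1, 3 and 7. Of the 11 non-ATPase genes, 3 were higher at an unadjusted p under 0.05 on day 1 (Psmd3, Psmd8 and Psmd14), 9 on day 3 and 8 on day 7. Psmd14, the deubiquitinase of the lid, had differences of 0.54 (SE 0.20), 0.54 (SE 0.20) and 0.69 (SE 0.20) on those days. Psmd4, a receptor for ubiquitin chains, had -0.01 (SE 0.26), 0.62 (SE 0.26) and 0.54 (SE 0.26).

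**Figure D4:**
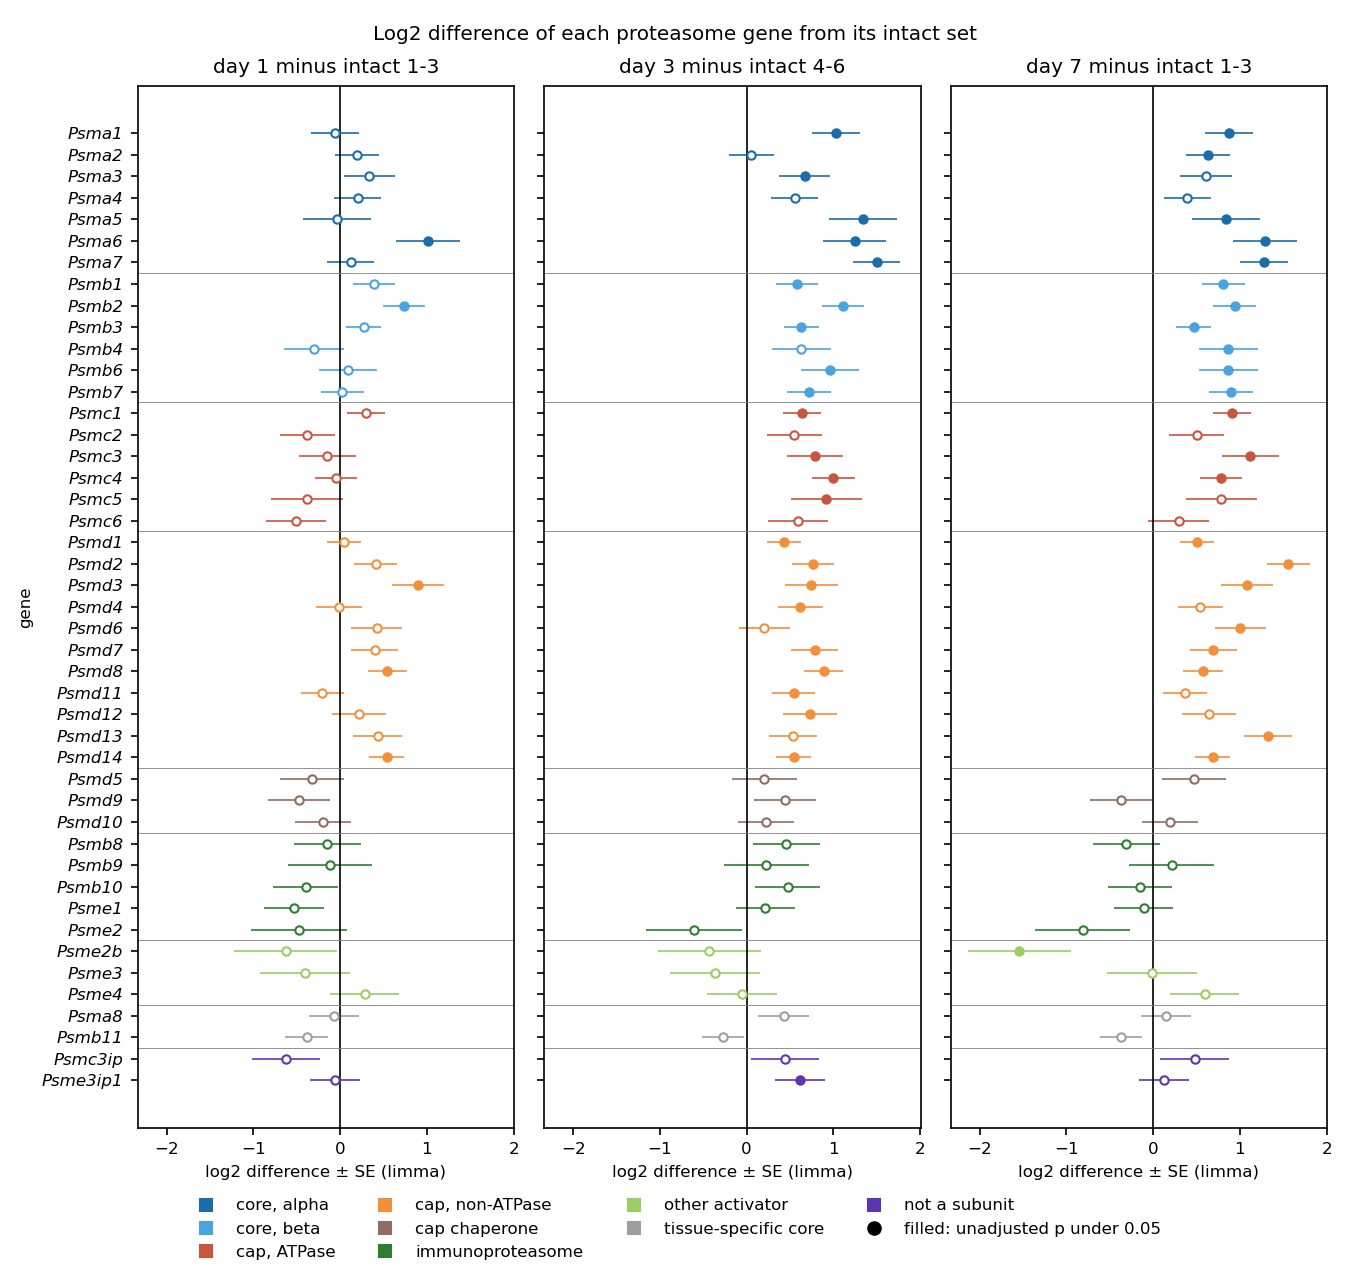
Log2 difference with its limma SE (horizontal axis) of each of the 45 genes (rows, coloured by role) from its intact set on days 1, 3 and 7, filled where the unadjusted p is under 0.05. Every core and cap point lies right of 0 on days 3 and 7, and all 5 immunoproteasome points are open on each day.

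The immunoproteasome genes gave no call at either threshold on any day. Psmb8, which stands in for Psmb5, measured 10.07, 8.90 and 9.71 on day 1 and 9.26, 9.72 and 9.23 on day 7, against 10.10, 9.68 and 9.35 in intact spleens 1 to 3. On day 3 it measured 10.09, 10.81 and 9.58, against 10.09, 8.99 and 10.03 in intact spleens 4 to 6. Its arrays overlapped in all 3 comparisons, with differences of -0.15 (SE 0.39), 0.46 (SE 0.39) and -0.31 (SE 0.39) on days 1, 3 and 7.

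Psmb9, the counterpart of Psmb6, measured 7.98, 6.63 and 7.51 on day 1 and 7.73, 7.81 and 7.57 on day 7, against 7.21, 7.34 and 7.93 in intact spleens 1 to 3. Its levels on day 3 were 8.05, 9.78 and 7.35, against 8.06, 7.88 and 8.54 in intact spleens 4 to 6. Replicate 2 of day 3 was the highest array and replicate 2 of day 1 the lowest, and the groups overlapped. Differences were -0.12 (SE 0.49), 0.23 (SE 0.49) and 0.21 (SE 0.49) on days 1, 3 and 7.

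Psmb10, the counterpart of Psmb7, measured 7.26, 5.56 and 6.44 on day 1 and 6.89, 6.34 and 6.75 on day 7, against 6.61, 7.21 and 6.61 in intact spleens 1 to 3. The day 3 values were 6.72, 7.66 and 6.75, against 6.73, 6.41 and 6.57 in intact spleens 4 to 6. The same arrays were the extremes, and every group overlapped its intact set. Differences were -0.39 (SE 0.37), 0.47 (SE 0.37) and -0.15 (SE 0.37) on days 1, 3 and 7, with a 95% interval of -0.95 to 0.65 on day 7.

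Psme1 and Psme2 encode both subunits of PA28. Psme1 measured 13.62, 12.83 and 13.97 on day 1 and 14.20, 13.72 and 13.76 on day 7, against 14.23, 13.98 and 13.79 in intact spleens 1 to 3. Day 3 gave 14.22, 15.20 and 14.35, against 14.97, 14.20 and 13.95 in intact spleens 4 to 6. All groups overlapped, with differences of -0.53 (SE 0.34), 0.22 (SE 0.34) and -0.11 (SE 0.34) on days 1, 3 and 7.

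Psme2 was the 1 immunoproteasome gene whose day 7 arrays were all below all 6 intact arrays (4% of all features). It measured 12.26, 9.20 and 11.13 on day 1 and 10.55, 10.46 and 10.57 on day 7, against 11.22, 10.98 and 11.81 in intact spleens 1 to 3. On day 3 it measured 11.08, 11.86 and 10.85, against 11.66, 12.36 and 11.58 in intact spleens 4 to 6. On day 1 the replicates spanned more than all intact spleens did. The difference on day 7 was -0.81 (SE 0.55, adjusted p = 0.657), and its 95% interval of -1.99 to 0.37 included 0. Psme2b, a near copy of Psme2 whose signal may not be separable from it, had -1.54 (SE 0.59) and was the 1 gene lower at an unadjusted p under 0.05 on day 7.

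The mean log2 level of the core less that of the immunoproteasome was taken within each array. Probe signals do not rank genes by abundance, so only its shift between groups is read. It was 0.87 to 1.46 on day 7, against 0.04 to 0.25 in intact spleens 1 to 3, with no overlap and a shift of 1.06. It was -0.13 to 0.96 on day 3, against -0.32 to -0.09 in intact spleens 4 to 6, a shift of 0.69 with overlap. On day 1 it was -0.15 to 1.54, which overlapped intact spleens 1 to 3 at a shift of 0.56. For single pairs, the level of Psmb10 less that of Psmb7 was shifted on day 7 by -1.05 and that of Psmb9 less Psmb6 by -0.65, both without overlap. On day 3 the shifts were -0.24 and -0.73, both with overlap.

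Cell type markers differed between the same arrays. The mean B cell marker level (7 of 8 markers) was 8.90 to 9.19 on day 7, against 9.99 to 10.87 in intact spleens 1 to 3. Of the 7, 4 were lower at an unadjusted p under 0.05 (4.45% of all features). T cell markers (8 of 10) had a median difference of -0.89 on day 7, with 4 lower (4.45%). Neutrophil markers (10 of 10) had 2.24, with 4 higher (5.91%). Day 1 replicate 2, the low array for the immunoproteasome (mean 8.62, against 10.24 and 9.75 in its group), was low for B cell markers as well (8.91, against 11.20 and 10.24). Day 3 replicate 2, the high array (11.06, against 10.03 and 9.78), was high for B cell markers (12.55, against 10.94 and 10.41) and low for erythroid markers (8.75, against 11.76 and 14.03). Without day 1 replicate 2 the immunoproteasome median on day 1 was 0.18, and without day 3 replicate 2 it was -0.09 on day 3. Of the other lists, proliferation markers (9 of 10) had medians of -1.06, -0.30 and 0.53 on days 1, 3 and 7, with 8 of 9 above 0 and 3 higher without overlap (7.93% of all features) on day 7. Erythroid markers (8 of 10) had -1.39, -0.87 and -0.37, with 8 of 8 below 0 on days 1 and 3, red pulp macrophage markers (8 of 8) had 1.14, 0.60 and -0.37, and plasma and dendritic cell markers lay between -0.67 and 0.09 on all days. The part of cell composition in any of these results was not tested.

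The acinar RNA of intact spleens 1 and 2 bears on days 1 and 7, of which day 7 is given here. With the mean of the acinar markers as a covariate, the core and cap medians on day 7 were 0.86 and 0.80. Without intact spleens 1 and 2 the medians were 0.96 and 0.76 with 16 genes. The day 7 median of the immunoproteasome changed sign, to 0.04 and 0.06.

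Outside the core, the cap and the immunoproteasome, the medians of the roles were smaller in size than those of core and cap on days 3 and 7. On day 1 they ran from -0.41 to -0.23, against 0.19 for the core and 0.21 for the cap. Psme2b had the largest single difference among these genes on day 7, -1.54. The chaperones of cap assembly Psmd5, Psmd9 and Psmd10 had medians of -0.32, 0.23 and 0.19 on days 1, 3 and 7, with 0 genes called at either threshold, and Psmd9 was below every array of its intact set on day 1. Psme3, a nuclear activator, differed by -0.41 (SE 0.52), -0.36 (SE 0.52) and -0.01 (SE 0.52), and Psme4, an activator of the proteasome at chromatin and in testis, by 0.29 (SE 0.40), -0.05 (SE 0.40) and 0.60 (SE 0.40). Psma8 of the testis and Psmb11 of the thymic cortex were the 2 genes below the array median on every array. Psmc3ip, a recombination factor, and Psme3ip1, a partner of Psme3, differed by 0.44 (SE 0.39) and 0.62 (SE 0.29) on day 3, and Psme3ip1 was the 1 gene outside core and cap that was higher at an unadjusted p under 0.05.

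Days 7 and 1, which share their intact spleens, were compared directly. All 30 core and cap genes had a higher mean on day 7, with a median difference of 0.58. Proliferation markers had a median of 1.51 in this comparison, with 9 of 9 above 0 and 6 higher at an unadjusted p under 0.05 (5.58% of all features). Erythroid markers had 1.33 (8 of 8 above 0) and neutrophil markers 0.87. T cell markers had -1.30 (6 of 8 lower at that threshold, against 7.12% of all features), B cell markers -1.27 (4 of 7) and red pulp macrophage markers -1.37 (4 of 8). The part of any of these markers was not tested. None of the 45 genes passed the adjusted threshold (0.0585% of all features did), 17 were higher at an unadjusted p under 0.05 (5.58%) and 0 lower (7.12%). Psmd2 differed by 1.15 (SE 0.25, adjusted p = 0.0763) and Psma7 by 1.16 (SE 0.27, adjusted p = 0.094). All 6 ATPases were among the 17, and Psmc3 had 1.27 (SE 0.33). Without day 7 replicate 3, the array with the highest core and cap means, the count at this threshold was 9, and without day 1 replicate 2 there were 2 lower genes.

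Day 3 less its intact set, minus day 1 less its own, was above 0 for 27 of 30 core and cap genes, with a median of 0.39. No gene passed the adjusted threshold (0%), 6 were higher at an unadjusted p under 0.05 (2.77%) and 0 lower (2.31%). These were Psma7, Psma1, Psma5, Psmc4, Psmc5 and Psmc6. Their number was 3 without day 3 replicate 3 and 11 without day 1 replicate 3 or without day 3 replicate 1. Day 7 less its intact set, minus day 3 less its own, gave 0 genes past the adjusted threshold (0%), Psmd2 as the 1 higher gene (2.77%) and 0 lower (3.07%), with a core and cap median of -0.07. The higher count ran from 0 to 3 when single arrays were left out, and 1 gene was lower without day 3 replicate 2.

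**Figure D5:**
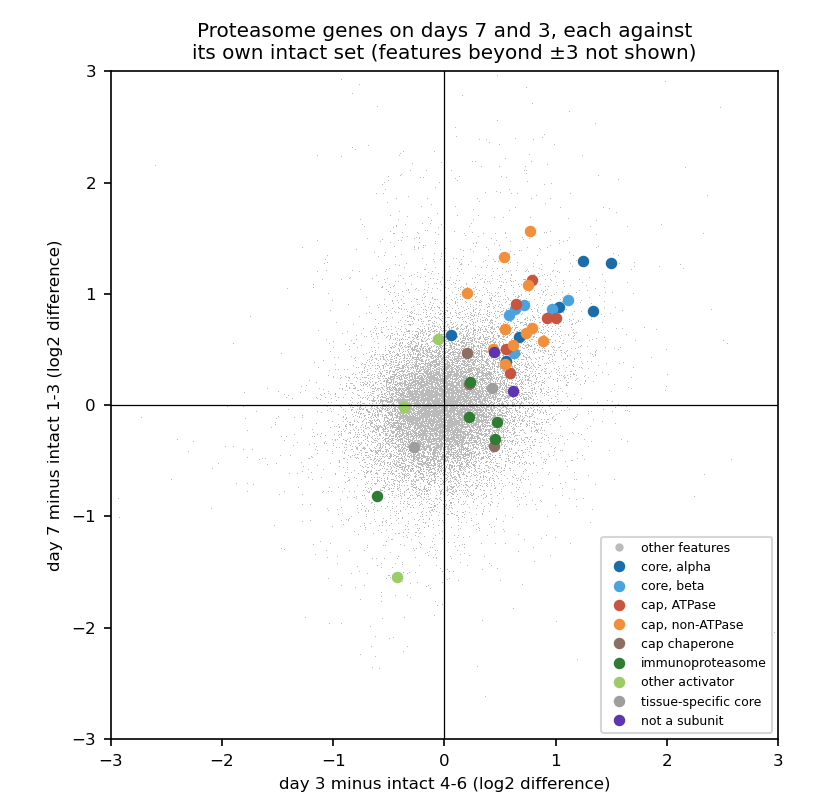
Log2 difference on day 7 from intact spleens 1 to 3 (vertical axis) against that on day 3 from intact spleens 4 to 6 (horizontal axis) for the 45 genes (coloured by role) and all other features (grey), which share no intact spleen. All 30 core and cap points lie above 0 on both axes, as do 27.6% of all features, and 4 of the 5 immunoproteasome points have a day 7 difference below 0.

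The intact sets differed in these genes as well. Between intact spleens 4 to 6 and 1 to 3, 0 genes passed the adjusted threshold (0.59% of all features), 1 was higher at an unadjusted p under 0.05 (5.64%) and 7 were lower (5.94%). The lower ones were Psmc4, Psmd4, Psmd8, Psmd1, Psmd7, Psmb6 and Psmc3ip, the higher one Psmd3, and 22 of 30 core and cap genes were below 0 with a median of -0.33. The lower count was 4 without intact spleen 2, and the higher count was 0 without intact spleen 4 and 2 without intact spleen 6. The cap median was 1.08 for day 7 against spleens 4 to 6 and 0.22 for day 3 against spleens 1 to 3. The other 8 of the 30 were higher in spleens 4 to 6, among them Psmb2 and Psmd3, which on day 3 differed from spleens 1 to 3 by 1.42 and 1.45. The cause of the difference between the sets was not tested.

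Medians of the other lists of the pathway were closer to 0 than those of the core and the cap on days 3 and 7. Of the 15 of 18 measured genes of proteasome assembly and control, 0 passed the adjusted threshold. Of them 1, 2 and 3 were higher at an unadjusted p under 0.05 on days 1, 3 and 7, against 4.48%, 5.76% and 5.91% of all features. Their medians were 0.19, 0.10 and 0.34. Sem1, a small subunit of the lid under another symbol, averaged 12.91 on day 7, against 11.86 in intact spleens 1 to 3, a difference of 1.05 (SE 0.31). Psmg2, a chaperone of alpha ring assembly, had 1.30 (SE 0.39) on day 3, and Psmg4, another such chaperone, 1.01 (SE 0.33) on day 7. Of the 17 of 23 measured genes of ubiquitin and its delivery, 1, 3 and 0 were higher at that threshold on days 1, 3 and 7, against the same shares. Lower were 1, 0 and 0, against 2.63%, 3.28% and 4.45% of all features, and the medians were -0.13, 0.20 and 0.19. The 3 on day 3 were the ubiquitin-conjugating enzymes Ube2k, by 1.10 (SE 0.29), and Ube2n, by 0.69 (SE 0.23), and the shuttle Rad23b, by 0.82 (SE 0.26).

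Of the 14 of 16 measured genes of class I presentation, 1, 2 and 1 were higher and 0, 0 and 1 lower at that threshold, with medians of 0.07, 0.21 and 0.08. The chaperone Calr was higher on day 7 by 1.54 (SE 0.56), H2-T23, a non-classical class I molecule, had -1.11 (SE 0.36), and the aminopeptidase Lap3 had 0.92 (SE 0.34) on day 3. The 8 of 10 measured targets of NRF2 had medians of 0.04, 0.24 and 0.08, with 2, 1 and 2 higher and 0 lower at that threshold, against the same shares of all features. Among them Txnrd1, a thioredoxin reductase, had 1.33, 1.19 and 1.29 (SE 0.29 each) on days 1, 3 and 7, above every array of its intact set on each day. Pgd had 2.07 (SE 0.60) on day 7. Hmox1, which is also among the red pulp macrophage markers, had 1.67 (SE 0.68) on day 1. On that day 4 of the 8 targets were above 0 and 4 below. Against every array of intact spleens 1 to 3, 2 targets lay above (7.89% of all features) and 2 below (7.14%). Those below were Gclm, by -1.25 (SE 0.67), and Gclc, by -1.05 (SE 0.51).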

How the data were processed

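Total RNA of each spleen was hybridised to 1 Clariom S mouse array. The values deposited by the authors are log2 signals normalised by robust multi-array averaging (RMA) in the Transcriptome Analysis Console (version 4.0.2). RMA brings the arrays towards a common distribution, so a shift shared by all genes cannot be seen. Over the features tested, the array medians still ran from 4.74 to 4.89. Further quantile normalization of these features changed the results on day 3, as given below. The platform holds 28846 features. Its 6640 controls were dropped, which left 22206 for testing. Gene names came from the platform annotation, and 21 genes of the lists had no feature with a single symbol.

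A model of 5 groups (days 1, 3 and 7, intact spleens 1 to 3 and intact spleens 4 to 6, with 3 arrays each) was fitted to the deposited log2 values with lmFit and eBayes of limma (version 3.58.1) in R (version 4.3.3). P values were adjusted by Benjamini and Hochberg's method over all 22206 features. Intervals are 95% intervals of this model. Where an unadjusted p under 0.05 is used, it serves as a count that is read against the share of all features. Arrays have no depth, and their number limits the precision. The labels call the spleens biological replicates.

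Values on every array are given for the immunoproteasome genes and their standard counterparts, and for the 2 genes of each core and cap role with the smallest unadjusted p on any day. From every other list up to 3 genes with the smallest unadjusted p are named. Further genes named singly were chosen after their values were seen. The 45 genes, the lists and the markers were chosen with earlier results of these data known. The counts against all 6 intact arrays together were added after values were seen.

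Alternatives covered the intact spleens used, the arrays in the model, the variance prior, a filter on dim features, further normalisation, acinar markers, the threshold, a replicate block and single arrays left out. The model was tested on simulated data with known changes.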

Additional observations from a re-analysis of the deposited data

Results flagged for a closer look

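Of 58 groups of 6 intact arrays that were checked, one for each of the 45 genes and for the means of the roles, 6 held an array whose gap to the others was above Dixon's 95% critical value, and chance gives about 1 in 20. Psma2 was at 11.2021 in intact spleen 4, against 10.31 to 10.60 in the other intact spleens. Psma8, below the array median throughout, was at 3.84299 in intact spleen 1, against 3.44 to 3.54. Psmb7 was at 11.5671 in intact spleen 4, against 11.98 to 12.21. Psmc1 was at 8.48434 in intact spleen 6, against 9.04 to 9.31. Psmd9 was at 6.32077 in intact spleen 6, against 7.25 to 7.70. Psme1 was at 14.9665 in intact spleen 4, against 13.79 to 14.23. All of the arrays named are controls, and those of spleens 4 and 6 enter the comparisons of day 3. Psmb7 differed on day 3 by 0.52 without intact spleen 4, and Psmc1 by 0.44 without intact spleen 6.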

How the results depend on the processing

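With all 6 as controls, 8 genes were higher on day 1 at an unadjusted p under 0.05, the cap median was 0.42 on day 1 and 0.86 on day 7, 5 genes passed the adjusted threshold on day 7, and the immunoproteasome median on day 7 was -0.30. With the other set, 12 genes were higher on day 1 and 13 on day 3, the cap medians were 0.61, 0.22 and 1.08 on days 1, 3 and 7, the adjusted counts were 1, 2 and 14, and the immunoproteasome median on day 7 was -0.46. A fold of at least 2 beside the unadjusted p left 1, 5 and 7 genes on days 1, 3 and 7, 6 in day 7 against day 1, 0 in day 7 against day 3 and 0 in either direction between the intact sets. For unadjusted calls under alternatives, the share of all features was counted only with the other set of intact spleens. A trended and robust prior gave 3 genes on day 1, 0 higher between the intact sets and 0 in day 7 against day 3, a value that median centring and a model of only the groups compared also gave (0). Further quantile normalization gave 12 genes on day 3 with a core median of 0.54, an immunoproteasome median of -0.24 on day 7, 2 higher and 4 lower between the intact sets, and 2 in day 7 against day 3. With acinar markers as a covariate the immunoproteasome median on day 7 was 0.042, 2 genes were higher and 3 lower between the intact sets, and 3 were higher in day 7 against day 3. Without intact spleens 1 and 2 together, which leaves 1 control array for days 1 and 7, the immunoproteasome median on day 7 was 0.055.

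Leaving out single arrays gave 3 to 5 higher genes on day 1, 12 to 23 on day 3 and 18 to 21 on day 7, 9 to 18 in day 7 against day 1, 3 to 11 in day 3 against day 1 and 0 to 3 in day 7 against day 3. Between the intact sets it gave 0 to 2 higher and 4 to 6 lower. The adjusted count on day 7 was 0 to 1. Core medians ran from 0.073 to 0.28 on day 1, 0.75 to 0.87 on day 3 and 0.74 to 0.96 on day 7, and cap medians from 0.0081 to 0.27, 0.47 to 0.77 and 0.65 to 0.78. Immunoproteasome medians ran from -0.60 to 0.18, -0.086 to 0.62 and -0.26 to -0.025 on those days. With the replicate number as a replicate block, 5 genes were higher on day 1, 18 on day 7 and 16 in day 7 against day 1, with 0 past the adjusted threshold, but same-numbered arrays correlated at -0.21 to 0.21 and share only a number. Day 3 and intact spleens 4 to 6 share no number, so no block was possible there. Each gene had 1 feature, so a mean over features gave the same values. Of 644 alternative values of the 14 genes given by array, 598 kept their sign and 15 passed the adjusted threshold. The causes were not tested.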
